A study of Mus musculus with 6 samples.

Results

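Glutathione peroxidases and the enzymes that feed them with glutathione were followed in cultured mouse embryonic stem (ES) cells after knockdown of BRG1, the ATPase of SWI/SNF chromatin-remodelling complexes, encoded by Smarca4. The set held 10 genes, Gpx1, Gpx2, Gpx3, Gpx4, Gpx7, Gsr, Gclc, Gclm, Nqo1 and Hmox1, which were selected on results of this same contrast, so their values are a description; where they pass or miss a threshold, this only places them in the fit across all genes and is no test of them. Every non-control probe whose gene name matched 1 of these symbols was taken, which gave 12 probes among 41174, and all 10 genes passed the filter on dim signal, as did 17758 of the 27962 gene names on the array. The cells, of an F1 background from 129 and C57BL/6, received for 48 h either a scrambled siRNA as control or one directed at BRG1, with 3 single-colour arrays in each group and 6 in all. Both groups were siRNA-treated, and no untreated cells were analysed here. The siRNA acts on a whole culture, which may mix cells with strong and weak knockdown.

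Glutathione peroxidases reduce hydrogen peroxide and lipid peroxides with glutathione as the electron donor, and in mouse Gpx1, Gpx2, Gpx3 and Gpx4 carry selenocysteine at the active site. The glutamate-cysteine ligase subunits Gclc and Gclm and the synthase Gss build glutathione, and the reductase Gsr returns its oxidised form to the reduced one with NADPH. Many of these genes, with Nqo1 and Hmox1, are known targets of NRF2 (Nfe2l2), a transcription factor held in check by KEAP1 that binds antioxidant response elements. In ES cells, as in other cells, Gpx4 guards membranes against the lipid peroxidation that leads to ferroptosis.

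Values are given as log2 of the processed spot intensity minus the 75th percentile of the same array, so 0 is that percentile, and differences are BRG1 siRNA minus control siRNA, given ± the standard error (SE) from limma. A gene is said to be called when limma's two-sided p, adjusted by the Benjamini-Hochberg method over all tested genes, was under 0.05. Smarca4 itself measured 4.32, 4.36 and 4.23 on control arrays 1, 2 and 3 and 3.76, 3.74 and 3.60 on BRG1 siRNA arrays 1, 2 and 3, which is 65.8% of control, and its other 2 probes stood at 54.7% and 66.2%. Its difference was -0.60 ± 0.064, but -0.39 ± 0.16 with spike-in scaling, where its call was lost (adjusted p = 0.117 from limma), and -0.54 in slide 1 alone, where the call was lost too (adjusted p = 0.0724 from limma). Of all tested genes, 4139 were called (23.3%), 1752 raised (9.87%) and 2387 lowered (13.4%), and for 7820 (44%) the arrays of the groups did not overlap. The slides were not balanced: slide 1 held the 3 control arrays and BRG1 siRNA array 1, and slide 2 held BRG1 siRNA arrays 2 and 3, scanned separately. With slide as a block, a difference therefore rests on BRG1 siRNA array 1 against the 3 controls, and it equals that of slide 1 alone. The labels do not say whether the arrays came from separate cultures, so the SE and p cover array-to-array spread that could be technical only, and 3 arrays a group limit the precision.

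Among the 10 redox genes, 3 were higher with a call (Hmox1, Gpx1 and Gpx4), 3 were lower with a call (Gpx2, Nqo1 and Gpx3) and 4 were not called (Gpx7, Gsr, Gclc and Gclm). The median difference of the 10 was -0.06, against -0.04 for all genes tested, and the arrays of the groups did not overlap for 7 of them. Since the genes were chosen from this contrast, nothing is read from these counts against the shares for all genes. The differences spanned -1.52 for Gpx2 to 0.71 for Hmox1, and those of the other 8 lay between -0.39 and 0.27. In these bulk samples, fewer cells of a type and less RNA per cell cannot be told apart.

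**Figure D1:**
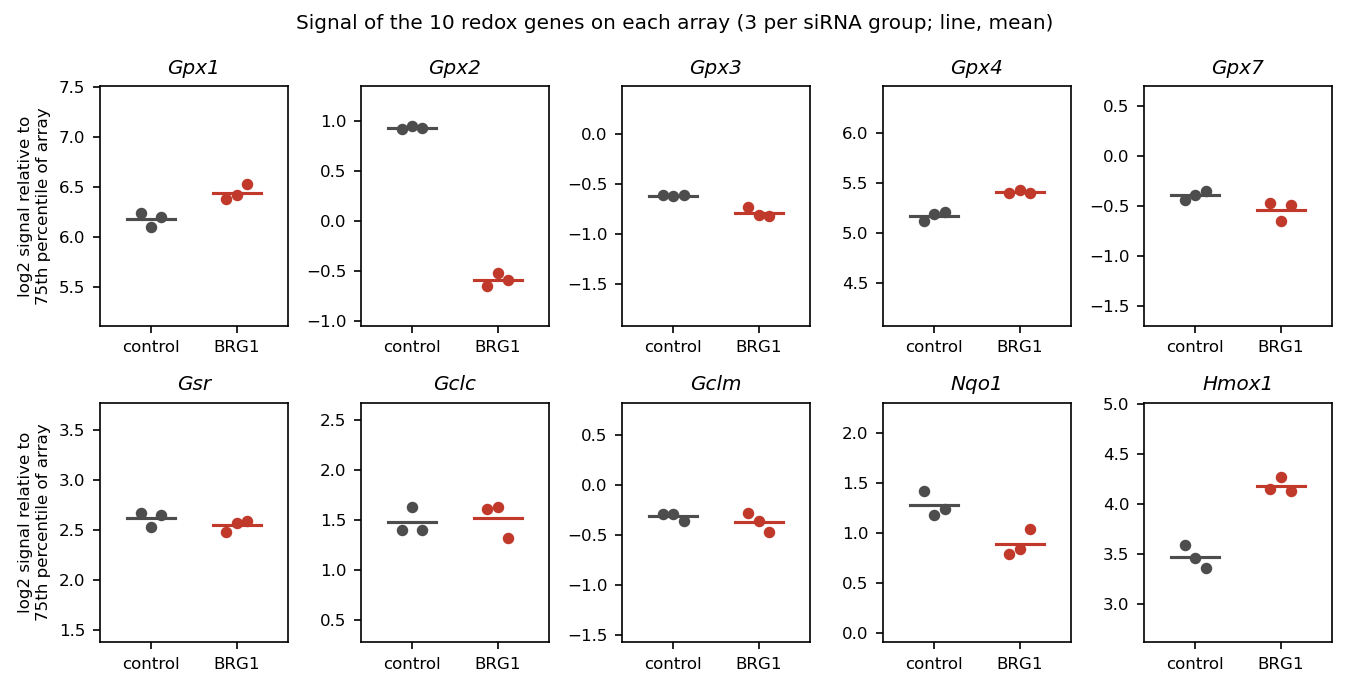
Log2 signal relative to the array's 75th percentile (vertical axis) of the 10 redox genes on each array, with control siRNA arrays in grey, BRG1 siRNA arrays in red and lines at the group means; each panel spans the same height on its own level. Gpx2 drops from 0.93 to -0.59 and Hmox1 climbs from 3.47 to 4.18, while the groups overlap for Gsr, Gclc and Gclm.

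Gpx2 encodes the gastrointestinal glutathione peroxidase, an epithelial selenoenzyme known as a target of both NRF2 and WNT signalling. It measured 0.92, 0.95 and 0.93 on the control arrays and -0.65, -0.52 and -0.59 on the BRG1 siRNA arrays. All BRG1 siRNA arrays lay below all controls, with a gap of 1.44 between the groups, against SDs of 0.017 and 0.067 within them (n = 3 each). In processed intensity the controls read 3710, 4520 and 3950 and the BRG1 siRNA arrays 1370, 1410 and 1320. The difference was -1.52 ± 0.048, or 34.8% of control. It stayed between -1.56 and -1.49 when any 1 array was left out, and was -1.59 with slide as a block and -1.31 when arrays were scaled to the spike-in probes.

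Gpx2 was read by 1 probe, at chr12:74751100-74751159 on the minus strand (mm7), whose first 30 of 60 bases show which transcript the largest difference of the set was read from. The 250 bases upstream of its RefSeq start, at chr12:76795555-76795804 on the minus strand (GRCm38.p6), show the promoter of that gene, and neither motif searched was in the window:
Gpx2 probe: gggctctaagtctggggtaggttctgggcc
Gpx2 promoter: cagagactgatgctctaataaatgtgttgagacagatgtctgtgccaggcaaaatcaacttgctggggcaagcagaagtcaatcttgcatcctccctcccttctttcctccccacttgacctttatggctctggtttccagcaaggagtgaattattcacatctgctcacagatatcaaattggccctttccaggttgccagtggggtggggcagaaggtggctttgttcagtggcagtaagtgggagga

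The motifs were the antioxidant response element core TGACNNNGC and the TCF/LEF core CTTTGAT, sought on both strands from 250 bases before to 50 after each start. Of 32851 such RefSeq windows, 4071 (12.4%) held the first and 1225 (3.73%) the second. Promoter windows were matched for 7 of the 10 genes, 10 windows in all because Gpx4 has several starts; Gsr, Gclc and Hmox1 were not matched. The first motif was in the window of 1 gene, Gclm, and the second in 0. A missing match says only that these letters are not in that window.

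Hmox1, haem oxygenase 1, opens the haem ring to release iron, carbon monoxide and biliverdin, and it had the largest increase of the 10 genes. Its values were 3.59, 3.46 and 3.36 on the control arrays and 4.15, 4.27 and 4.13 on the BRG1 siRNA arrays. The groups were separated by 0.55, with a control mean of 3.47 ± 0.11 and a BRG1 siRNA mean of 4.18 ± 0.078 (SD, n = 3 each). The difference was 0.71 ± 0.074, or 164% of control. It was 0.66 to 0.77 with any 1 array left out, 0.67 with slide as a block and 0.93 with spike-in scaling, and the call was lost only in slide 1 alone, where the difference was also 0.67. The probe lies at chr8:73642229-73642288 on the plus strand (mm7), and its first 30 bases, not aligned to a transcript here, are:
Hmox1 probe: atggttgtaagcatccatgttgactgacca

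Gpx1, the ubiquitous cytosolic peroxidase, and Gpx4, the phospholipid hydroperoxide peroxidase, were both somewhat higher. Gpx1 (probe at chr9:108073279-108073338, plus strand, mm7) measured 6.24, 6.10 and 6.20 in controls and 6.38, 6.42 and 6.53 after BRG1 siRNA, a difference of 0.27 ± 0.062. Gpx4 (chr10:79836650-79836709, plus strand, mm7) measured 5.12, 5.19 and 5.21 in controls and 5.40, 5.43 and 5.40 after BRG1 siRNA, a difference of 0.24 ± 0.042. No BRG1 siRNA array overlapped the controls for either gene, and the sizes correspond to 120% and 118% of control. The call of Gpx1 was lost whichever array was left out, at 0.22 to 0.30, and with slide as a block, at 0.20. The call of Gpx4 was lost without control array 2 or 3 or BRG1 siRNA array 2, over a range of 0.21 to 0.26, and with slide as a block, at 0.23; scaled to the spike-in probes the differences were 0.48, with a call, and 0.45, without one.

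Gpx3 and Gpx7, both secretory-pathway peroxidases, were slightly lower under 75th percentile scaling and turned slightly higher, to 0.043 and 0.069, under spike-in scaling. Gpx3, the plasma selenoenzyme (chr11:54866691-54866750, plus strand, mm7), read -0.61, -0.62 and -0.61 in controls and -0.73, -0.81 and -0.82 after BRG1 siRNA. The difference was -0.17 ± 0.041, with no overlap, and its call was lost on leaving out any array except BRG1 siRNA array 1, over a range of -0.20 to -0.16. Gpx7, an endoplasmic reticulum peroxidase that uses cysteine in place of selenocysteine (chr4:107777137-107777196, minus strand, mm7), read -0.44, -0.39 and -0.35 in controls and -0.47, -0.65 and -0.49 after BRG1 siRNA. Its groups were only 0.037 apart, and the difference of -0.15 ± 0.062 was not called.

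Among the 10 genes, those that make or recycle glutathione, Gclc, Gclm and Gsr, were not called. Gclc, the catalytic subunit of glutamate-cysteine ligase (chr9:77835053-77835112, plus strand, mm7), read 1.40, 1.63 and 1.40 in controls and 1.61, 1.63 and 1.32 after BRG1 siRNA. Its groups overlapped, and the difference of 0.045 ± 0.11 changed sign, to -0.0007 without BRG1 siRNA array 1 and -0.0077 without array 2. Gclm, the modifier subunit (plus strand of chromosome 3, from 122027477 to 122030112, mm7), read -0.29, -0.29 and -0.36 in controls and -0.28, -0.36 and -0.47 after BRG1 siRNA. These also overlapped, and its difference of -0.055 ± 0.06 turned to 0.16 under spike-in scaling and 0.032 with slide as a block. The Gclm window alone held the antioxidant response element core; it is shown from chr3:122245307-122245556 on the plus strand (GRCm38.p6), with the match in capitals, which lies at -134 to -126 from the start and reads as the core on the opposite strand:
Gclm promoter: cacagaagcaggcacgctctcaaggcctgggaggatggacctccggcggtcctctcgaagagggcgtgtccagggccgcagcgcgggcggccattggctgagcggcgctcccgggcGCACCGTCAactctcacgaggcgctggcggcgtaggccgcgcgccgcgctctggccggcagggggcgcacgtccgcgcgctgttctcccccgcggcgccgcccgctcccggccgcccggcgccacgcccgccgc

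Gsr, glutathione reductase, had 3 probes on the plus strand of chromosome 8, and the probe used for the gene (chr8:32465210-32465269, mm7) read 2.67, 2.53 and 2.65 in controls and 2.48, 2.57 and 2.59 after BRG1 siRNA. Its groups overlapped, with a difference of -0.068 ± 0.057 that turned to 0.15 under spike-in scaling. The other 2 probes, at chr8:32465796-32465855 and chr8:32465775-32465834 (mm7), share 39 bases with each other and are not independent. They differed by -0.14 ± 0.041 and -0.10 ± 0.051 without overlap between groups, and none of the 3 probes was called.

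Nqo1, a quinone reductase that uses NADH or NADPH, read 1.42, 1.18 and 1.24 in controls and 0.79, 0.84 and 1.04 after BRG1 siRNA. All BRG1 siRNA arrays were below the controls, with BRG1 siRNA array 3 closest to them, 0.14 under the lowest control. The difference was -0.39 ± 0.10, or 76.1% of control (probe at chr8:105988683-105988742, minus strand, mm7). Its call was lost on leaving out any array except BRG1 siRNA array 3, over a range of -0.47 to -0.32, and with slide as a block, at -0.50, while spike-in scaling gave -0.18. Whether the motifs bear on the differences of these genes was not tested. The Nqo1 window, shown from chr8:107403206-107403455 on the minus strand (GRCm38.p6), held neither motif:
Nqo1 promoter: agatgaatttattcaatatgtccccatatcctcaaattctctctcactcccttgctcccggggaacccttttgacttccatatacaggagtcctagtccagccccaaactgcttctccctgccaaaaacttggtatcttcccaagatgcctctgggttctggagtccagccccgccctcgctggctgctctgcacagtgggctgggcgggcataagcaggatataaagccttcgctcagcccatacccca

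**Figure D2:**
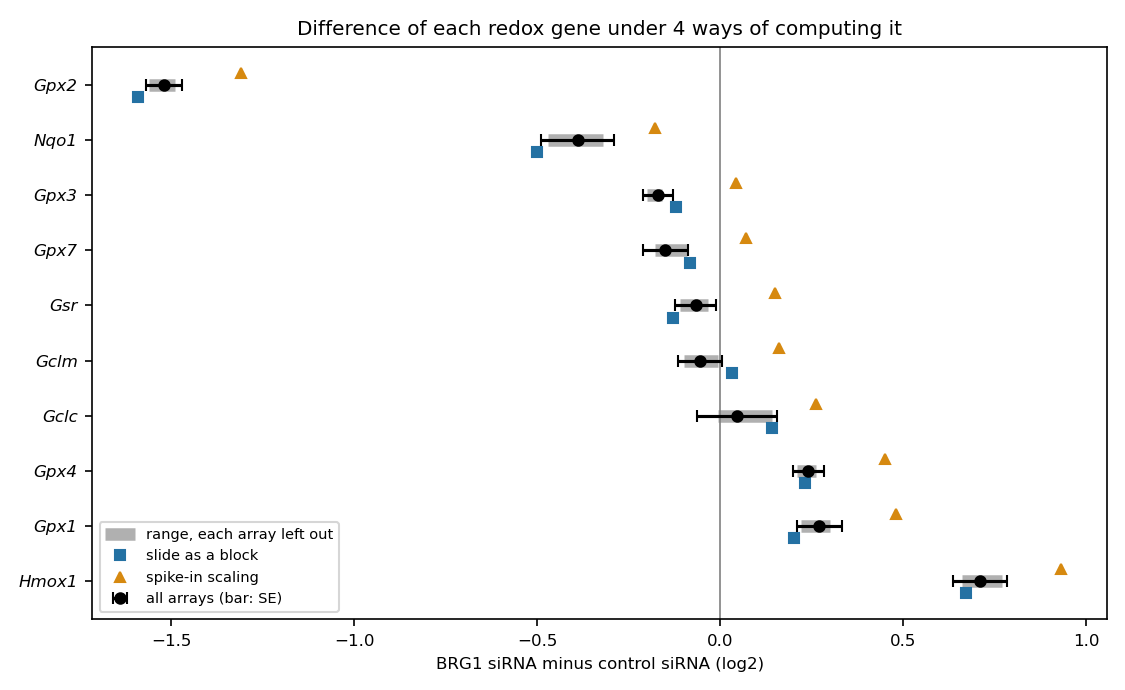
Difference of each redox gene (horizontal axis, log2, BRG1 siRNA minus control siRNA) from all 6 arrays with its SE (black), with slide as a block (blue squares) and scaled to the spike-in probes (orange triangles); grey bars span the values with each array left out. Gpx2 and Hmox1 keep their direction in all of these, whereas Gpx3, Gpx7, Gsr and Gclm change sign with spike-in scaling, and Gclm also does with slide as a block. The blue squares rest on BRG1 siRNA array 1 against the controls.

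Scaling to the spike-in probes moved the median difference of all genes from -0.04 to 0.18, so every gene lay higher on that scale. There, 3 of the 10 genes were called, Gpx1 and Hmox1 as higher and Gpx2 as lower, while 1937 of all 17758 genes were called. With slide as a block, 2 of the 10 were called, Gpx2 and Hmox1, while 1392 of all 17758 genes were called.

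The rest of the redox system was described through 8 lists of 129 genes, of which 119 could be tested; 25 were called lower and 8 higher, among the latter Oplah, whose probes were called in opposite directions. Aldh3a1, Dio1, Dio2, Gpx5, Gsta2, Osgin1, Selenoi, Slc7a11 and Sod3 were too dim to test, and Gstp2 was not analysed here. The share called was 27.7% (21% lowered and 6.72% raised), against 23.3% (13.4% and 9.87%) for all genes, and the median difference was -0.081 against -0.04. The lists too were chosen with earlier results of these data known, so these shares are a description and no test of the lists. Over all genes, 1292 of the 4139 calls were also made with slide as a block and 1509 with spike-in scaling. Of the 33 calls in the lists, 18 were kept whichever array was left out, 11 with slide as a block and 8 with spike-in scaling, where 6 of the calls were raised and 2 lowered. With slide as a block these were Glrx, Glrx5, Gss, Gstm2, Gsto1, Gstt3, Maff, Blvrb, Pgd, Cbr3 and Selenoo, and with spike-in scaling Gss, Anpep, Gsta3, Msrb2, Nqo2 and Selenon (raised) and Glrx and Gstm2 (lowered). Within slide 1 alone 0 were kept; there limma gave an unadjusted p under 0.05 for 52 of 119 genes (37% lower and 6.72% higher), against 5547 of all 18470 genes tested on that slide (18.4% lower and 11.6% higher), a difference in shares that was not tested. Adjusted p-values below are over all genes tested.

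**Figure D3:**
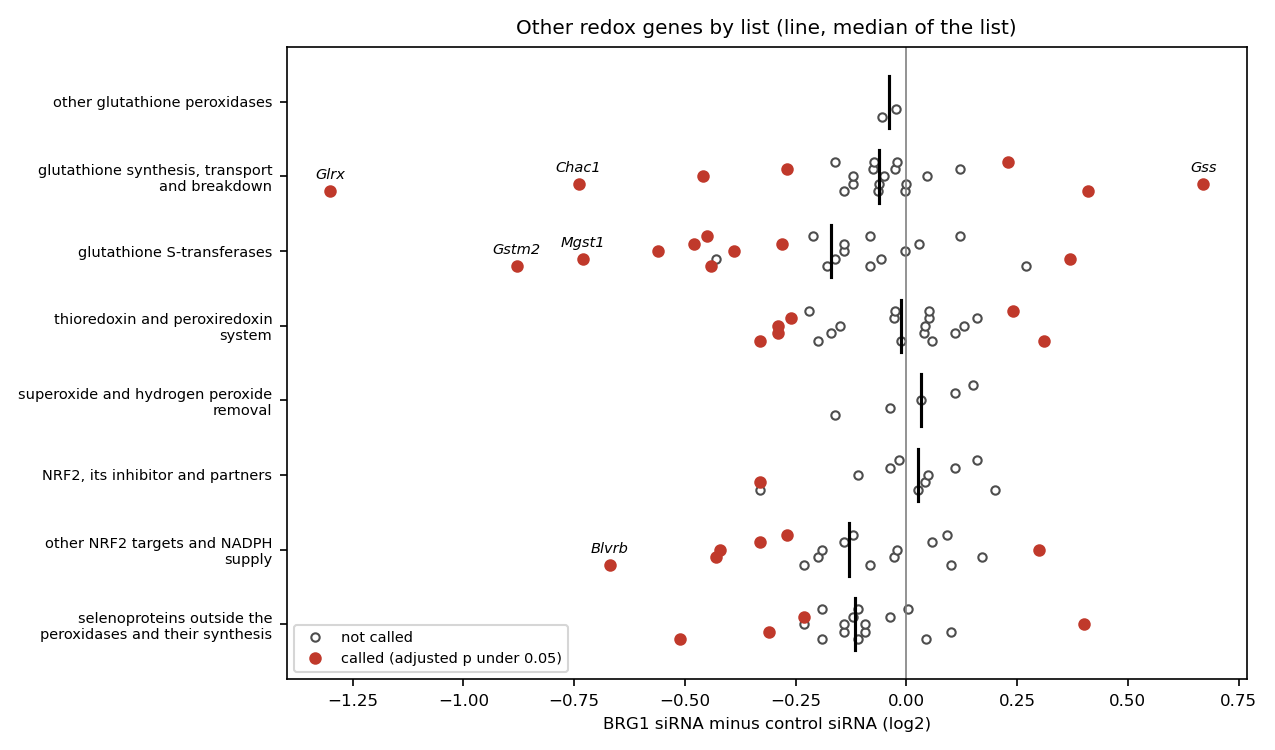
Difference (horizontal axis, log2, BRG1 siRNA minus control siRNA, 75th percentile scaling) of the 119 other redox genes tested, by list (vertical axis), with called genes in red, the others open and a line at each list's median; called genes past 0.6 in either direction carry their names. In the glutathione S-transferase list 8 genes were called lower and 1 higher, and in the NRF2 list 1 of 11 genes, Maff, was called lower.

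Of the genes of glutathione synthesis, transport and breakdown, 4 of 22 were called lower and 3 higher, Oplah among the latter, with a median of -0.063. These are 18.2% and 13.6%, against 13.4% and 9.87% of all genes. Glrx, a glutaredoxin that uses glutathione to reduce mixed disulfides on proteins, read 1.10, 1.25 and 1.24 in controls and -0.13, -0.072 and -0.094 after BRG1 siRNA. It fell by 1.30 ± 0.054 (log2), or to 40.7% of control (adjusted p = 0.000803 from limma), and was the largest change among the 119 genes. Gss, glutathione synthase, read 0.86, 0.96 and 0.90 in controls and 1.56, 1.66 and 1.52 after BRG1 siRNA. It rose by 0.67 ± 0.054, to 159% of control (adjusted p = 0.00204 from limma), so the enzyme of the last step of synthesis moved while the ligase subunits were not called. Both kept their calls with any array left out. They also did with slide as a block, at -1.33 and 0.65, values that rest on BRG1 siRNA array 1 against the controls.

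Chac1, a cytosolic enzyme that cleaves glutathione, fell by 0.74 ± 0.14 and Ggt6, of the gamma-glutamyltransferase family, by 0.46 ± 0.11. Chac1 read 0.48, 0.97 and 0.86 in controls and 0.069, -0.071 and 0.079 after BRG1 siRNA, so control array 1 was lowest among the controls. Glrx5, a mitochondrial glutaredoxin of iron-sulfur cluster assembly, fell by 0.27 ± 0.043, and Anpep, an aminopeptidase that trims cysteinyl-glycine, rose by 0.41 ± 0.058. Oplah, 5-oxoprolinase, was called at 0.23 ± 0.042, but its other probe was called at -0.51 ± 0.12, and the mean of its probes gave -0.14, so no direction is given for the gene. The calls of Chac1 (-0.89 to -0.64 with an array left out), Ggt6 (-0.57 to -0.40), Glrx5 (-0.29 to -0.24) and Oplah (0.21 to 0.25) were each lost without control array 2 or 3. Those of Chac1 and Ggt6 were also lost without BRG1 siRNA array 1 or 2, that of Oplah without BRG1 siRNA array 2, and those of Ggt6 and Oplah without control array 1.

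Glutathione S-transferases are a class of enzymes that conjugate glutathione to electrophiles. Of 22 genes listed under that name, Gstcd included, 8 were called lower (36.4%) and 1 higher (4.55%), with a median of -0.17. The shares of all genes were 13.4% and 9.87%. Gstm2 read 1.29, 1.27 and 1.30 in controls and 0.36, 0.37 and 0.49 after BRG1 siRNA, a fall of 0.88 ± 0.051 (adjusted p = 0.00114 from limma). Mgst1, a membrane-bound microsomal transferase, fell by 0.73 ± 0.10, and its other probe gave -0.75. Gstm1 fell by 0.56 ± 0.092, although its other probe, at -0.15 ± 0.06, was not called, and Gsto1, of the omega class, fell by 0.48 ± 0.087. Gsta3, of the alpha class, was the transferase called higher, by 0.37 ± 0.046, with 0.30 from its other probe. Gstm1 (-0.63 to -0.49) lost its call without control array 3 or BRG1 siRNA array 2, and Gsto1 (-0.56 to -0.40) on leaving out any 1 control array or BRG1 siRNA array 2. The Gstm genes are close relatives, and their probes may detect each other's transcripts.

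The thioredoxin and peroxiredoxin system reduces peroxides and protein disulfides in parallel with glutathione. Among its 21 genes, with a median of -0.011, 4 were called lower (19%) and 2 higher (9.52%). The shares of all genes were 13.4% and 9.87%. Msra, a methionine sulfoxide reductase, fell by 0.33 ± 0.063, Prdx6, a peroxiredoxin that takes electrons from glutathione, by 0.29 ± 0.041 and Sesn3, a sestrin, by 0.29 ± 0.046. Txnrd1, the cytosolic thioredoxin reductase and an NRF2 target, fell by 0.26 ± 0.059. Msrb2, a mitochondrial methionine sulfoxide reductase, rose by 0.31 ± 0.042, and Sesn1, another sestrin, by 0.24 ± 0.057. The calls of Msra (-0.37 to -0.28) without control array 2 or 3 or BRG1 siRNA array 1, of Txnrd1 (-0.31 to -0.22) on leaving out any array except BRG1 siRNA array 3, and of Sesn1 (0.20 to 0.28) on leaving out any except BRG1 siRNA array 1 were lost. Other probes disagreed in part: those of Prdx6 gave -0.38 (called) and 0.094 ± 0.29 (not called), those of Sesn3 -0.34 (called) and -0.25 ± 0.32 (not called), and those of Sesn1 0.26 (called) and 0.091 ± 0.084 (not called). With the mean of the probes the calls of Prdx6 (-0.19, adjusted p = 0.305 from limma), Sesn3 (-0.29, 0.136) and Sesn1 (0.20, 0.0576) were lost.

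For the next 3 lists the counts are small, against 23.3% called over all genes. Of the glutathione peroxidases outside the 10 genes, Gpx6 differed by -0.056 and Gpx8 by -0.023; limma called 0 of these 2, and 0 had an unadjusted p under 0.05. Of superoxide dismutases, catalase and related genes, limma called 0 of 5, with 1 at an unadjusted p under 0.05, and their differences ran from -0.16 to 0.15. Of NRF2, its inhibitor and partners, 1 of 11 was called, as lower. It was Maff, a small MAF protein that dimerises with NRF2, at -0.33 ± 0.045 (adjusted p = 0.00658 from limma). Nfe2l2 itself read 2.93, 3.01 and 2.97 in controls and 2.98, 2.95 and 2.87 after BRG1 siRNA, with overlapping groups and a difference of -0.036 ± 0.047 (adjusted p = 0.62 from limma). Keap1 differed by 0.043 ± 0.10 (adjusted p = 0.786 from limma).

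Among other NRF2 targets and genes of NADPH supply, 5 of 18 were called lower (27.8%) and 1 higher (5.56%), with a median of -0.13. The shares of all genes were 13.4% and 9.87%. Blvrb, biliverdin reductase B, read 0.93, 1.03 and 0.98 in controls and 0.28, 0.24 and 0.40 after BRG1 siRNA, a fall of 0.67 ± 0.058 (adjusted p = 0.00234 from limma). Blvrb was lower where Hmox1 was higher, and a link between them was not tested. Pgd, which makes NADPH in the pentose phosphate pathway, fell by 0.42 ± 0.039, with -0.21 and no call from its other probe. Me1, malic enzyme, fell by 0.43 ± 0.10, Cbr3, a carbonyl reductase, by 0.33 ± 0.044, and Idh1, the cytosolic isocitrate dehydrogenase, by 0.27 ± 0.047. Nqo2, the relative of Nqo1, rose by 0.30 ± 0.045, while Nqo1 was lower. Me1 (-0.54 to -0.37) lost its call on leaving out any array except BRG1 siRNA array 3, and Idh1 (-0.29 to -0.25) without control array 3 or BRG1 siRNA array 2.

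Of 18 selenoproteins outside the peroxidases and genes of their synthesis, 3 were called lower (16.7%) and 1 higher (5.56%), with a median of -0.11. The shares of all genes were 13.4% and 9.87%. Dio3, which inactivates thyroid hormone, fell by 0.51 ± 0.077, Selenoo, a mitochondrial selenoprotein, by 0.31 ± 0.066 and Selenop, the selenium carrier of plasma, by 0.23 ± 0.036. Selenon, of the endoplasmic reticulum, rose by 0.40 ± 0.069. Selenoo (-0.35 to -0.25) lost its call on leaving out any 1 control array, Selenop (-0.24 to -0.22) without control array 3, and Selenon (0.35 to 0.47) without control array 3 or BRG1 siRNA array 2.

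For Gpx2, the genes most alike in pattern over the 6 arrays were Parl (Pearson r = 0.9997), Oxct1 (0.9991), Dtx1 (0.9988), Fxyd6 (0.9987) and Phf11a (0.9985), out of 16491 genes above background on all arrays. For Hmox1 they were Eci1 (0.9998), Lxn (0.9988), Enah (0.9986), Prag1 (0.9978) and A730098D12Rik (0.9977). The 6 points fall into the 2 siRNA groups, and 1307 genes exceeded 0.95 with Gpx2 and 762 with Hmox1. The sizes differed, at -0.27 for Parl and -0.74 for Dtx1 against -1.52 for Gpx2.

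The label of ES cells was checked on marker lists, given as linear signal relative to the array's 75th percentile. Each sum below takes every marker of its list that was on the array, also those not above background. All 11 ES cell markers on the array were above background on all 6 arrays, and their sum was 472 to 478 in controls and 474 to 495 after BRG1 siRNA, while Klf4, Nanog and Utf1 were called higher and Pou5f1 lower. Of 15 fibroblast markers, 12 were above background on all 6 arrays. The sum of all 15 was 21.6 to 24 in controls and 14.2 to 15.8 after BRG1 siRNA. Of 13 tested, 6 were called lower (Col1a1, Col3a1, Fn1, Pdgfrb, S100a4 and Thy1) and 2 higher (Lox and Mgp). For primitive endoderm, 10 of 13 were above background on all arrays (Afp on none), with sums of 5.99 to 6.21 and 5.31 to 5.64 and 3 of 10 tested lower (Amn, Dab2 and Lama1). For trophectoderm this held for 9 of 10 (Elf5 on none), with sums of 77.5 to 89.2 and 89.2 to 94.1, although 3 of 9 tested were lower (Cdx2, Eomes and Krt7) and 2 higher (Hand1 and Tfap2c); a sum weighs bright genes most. For macrophages, 3 of 9 were above background on all arrays (Adgre1 on none), with sums of 0.756 to 0.879 and 0.917 to 0.938 and 1 of 5 tested higher (Cd68). For comparison, 13.4% of all genes tested were called lower and 9.87% higher, and these marker counts are small. The part of the marker shifts in the redox differences was not tested.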

How the data were processed

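Total RNA was labelled with Cy3 from 500 ng, per the labels' protocols. The deposited files hold linear spot intensity after background subtraction by Feature Extraction 9.5.3.1 (design 014868, mm7 probe coordinates), per the file headers, with no scaling between arrays; the submitters' processing notes give version 9.5. The deposited value table equals that signal (largest difference 0): it is linear, not centred and has no ratio direction, with medians of 185.5, 181 and 173 for controls 1, 2 and 3 and 167, 161.8 and 172.6 for BRG1 siRNA arrays 1, 2 and 3.

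Control spots (1639 of 45018) and outlier spots (387 on at least 1 array) were left out. Between 60.9 and 75.3% of spots per array stood above background. Log2 signals were scaled to each array's 75th percentile, a gene name took its probe of highest mean signal, and it was tested if 1 group had that probe above background throughout. Names followed RefSeq (GRCm38.p6), by accession for 11920 genes and by symbol for 1765, and 4073 kept the file's name; promoters are from the same source. Groups, taken from the sample labels, were compared with limma 3.58.1 in R 4.3.3, after a test on simulated data.

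The 10 genes and all lists were chosen with earlier results of these data known. Named are the 10 genes with every probe, Smarca4, up to 4 called genes per list and direction (all where 5 or fewer were called), and the 5 genes most correlated with Gpx2 and with Hmox1. Deviations of same-numbered arrays correlated at -0.328, 0.0866 and 0.1, so the numbers were not taken as pairs. Log2 differences between arrays of a group had SDs of 0.19 to 0.259, and at most 1 spot was equal on a pair of arrays. The alternatives were quantile, median and spike-in scaling, normexp correction (offset 50), other filters and probe summaries, slide blocks, slide 1 alone, a replicate block, trend and robust eBayes, array weights, the value table and each array left out.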

Additional observations from a re-analysis of the deposited data

How the results depend on the processing

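Counts called moved by more than 1.5 times under several settings, against 4139 genes, 6 of the 10 redox genes (6 by probe as well) and 33 of the other redox genes. Over all genes they were 1734 with median scaling, 1937 with spike-in scaling (1550 raised and 387 lowered, against 1752 and 2387), 1740 with no filter on dim probes, 1392 with slide as a block, 59 in slide 1 alone, 1945 with the replicate block and 6941 with array weights. For the 10 genes, and for their 12 probes, they were 3, 3, 2, 2, 1 and 2 in that order, without array weights. For the other redox genes they were 14 (3 raised, 11 lowered), 8 (6 raised, 2 lowered), 20, 12, 0, 20 and 56. Leaving out 1 array gave 1641 to 4413 genes, 2 to 4 of the 10 genes and of their probes, and 18 to 43 others. Slide 1 alone holds 1 BRG1 siRNA array, whose spread is taken from the controls. With slide as a block the differences are those of slide 1 alone, and only the spread also draws on slide 2. The replicate block rests on numbers that did not pair the arrays; it ended the calls of Gpx1, Gpx3, Gpx4 and Nqo1. Of single genes, the sign turned with spike-in scaling for Gpx3 (0.043), Gpx7 (0.069), Gsr (0.15) and Gclm (0.16), for Gclm with slide as a block and in slide 1 alone (0.032 in both), and for Gclc without BRG1 siRNA array 1 or 2 (-0.0007 and -0.0077; -0.0077 to 0.14 over all arrays left out). Smarca4 lost its call with spike-in scaling (-0.39) and in slide 1 alone. The cause of these shifts was not tested. Differences of dim probes are limited by signal over background.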
